A study of Mus musculus with 2 samples.

Results

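The cells described here are osteoclast-like cells of mouse periosteum, picked out of single-cell RNA sequencing of 2 libraries, 1 at day 3 after tibial fracture and 1 from uninjured bone. A barcode was counted as a cell when it held at least 500 genes and at least 1000 UMIs (unique transcript molecules), with at most 10% mitochondrial UMIs. Members had Acp5 at 5 or more UMIs per 10000, at least 1 UMI over Atp6v0d2, Dcstamp and Ocstamp together, and the EGFP reporter under 3 per 10000. They numbered 695 of 14463 cells at day 3 and 111 of 4431 cells without injury, or 806 of 18894 in all. They were set against C1q macrophages of the same library, defined by C1qa, C1qb and C1qc together at 10 or more per 10000 with Acp5 under 5 and EGFP under 3, which numbered 4918 cells at day 3 and 1121 cells without injury. Acp5, the 3 fusion genes, the C1q genes and EGFP chose the classes, so their values below are a description.

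Osteoclasts are the bone-resorbing cells of the monocyte lineage. Precursors exposed to CSF1 and RANKL switch on the transcription factor NFATc1, fuse through DC-STAMP and OC-STAMP into large multinucleated cells, seal a patch of bone with actin-rich podosomes, acidify it with a V-type proton pump and digest the collagen with cathepsin K. In a healing fracture they remove cartilage and woven bone, and cells still mononuclear at this point are called preosteoclasts. Large multinucleated cells are poorly captured in droplets, so droplet libraries tend to sample the small end of this lineage.

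Both libraries were made from Prx1Cre;mTmG mice, in which Cre driven by the Prx1 promoter of limb mesenchyme switches a membrane tdTomato reporter to membrane EGFP. Cells of the day-3 library came from periosteum 3 days after tibial fracture and cells of the other library from uninjured periosteum. The labels' protocols describe explant culture at 33 °C with 20% serum and bFGF at 10 ng/mL until 80% confluence, whereas the series' design text states use without expansion at passage 0. All live cells were taken, with no sort for the reporter, and 20000 cells were loaded on the 10x Chromium controller. The monocyte lineage is not descended from Prx1 cells, and tdTomato was read in 4.46% of members at day 3 and 3.60% without injury. EGFP below the limit of the rule was read in 30.5% of members at day 3 and 68.5% without injury, and in 18.4% and 54.7% of macrophages. After thinning each cell to 3000 UMIs the shares were 6.80% and 20.2% of members and 9.99% and 20.0% of macrophages. The number of mice, their age and their sex are not given in the sources used here. Each group is 1 library, which allows no test over samples, and injury, mice, culture and library cannot be told apart. Sex goes with the library over all members and was held constant only where male cells were compared alone. Intervals are 95% intervals of the counting error only.

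The 2 libraries held 227191961 UMIs over 16332 deposited barcodes at day 3 and 94034112 UMIs over 4573 barcodes without injury. Only 3 barcodes occurred in both libraries and none of them was a member. Among members with a sex call from Xist and Y-linked genes, 526 were female and 74 male at day 3, against 0 female and 85 male without injury. The median member held 16853 UMIs at day 3 and 18585 without injury, against 5662 and 10815 in the C1q macrophages of the same libraries. Scrublet candidates for doublets, taken as a fixed top share of scores set by the number of barcodes, made up 115 members at day 3 (16.5%) and 1 member without injury (0.901%), beside 11.6% and 3.54% of all cells in these libraries.

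The label of osteoclast-like cells was checked against other lineages. Levels of a class are given as CPM, the UMIs of a gene per 1000000 UMIs summed over the class. Summed over the 5 osteoclast markers, 4 of them rule genes, members stood at 8082 CPM at day 3 and 4441 without injury, while the cells outside both classes stood at 152 at day 3 and 96.5 without injury. Mmp9, the marker of the 5 that took no part in the choice, had 2859 CPM in members at day 3 and 1853 in members without injury. The 7 macrophage markers summed to 1057 and 1073 CPM in members of the day-3 and uninjured libraries, against 4476 and 6773 in macrophages of the same libraries, but 3 of the 7 are the C1q genes that defined the macrophages. The other 4 (Adgre1, Mrc1, Cd68 and Csf1r) summed to 867 and 766 CPM in members, against 1519 and 1297 in macrophages. Cd68 itself stood at 398 CPM in members and 295 in macrophages at day 3 and at 438 and 520 without injury. Markers of dendritic, T or NK, B, erythroid, mast, endothelial, osteoblast and muscle cells summed to at most 2.81 CPM in either group of members. Monocyte markers summed to 81.6 CPM in members at day 3 and 7.03 without injury, and chondrocyte markers to 0.497 and 12.2. Neutrophil markers summed to 957 CPM in members at day 3, with Ly6g at 0, against 6.56 without injury. Mesenchymal markers summed to 47.9 CPM in members at day 3 and 390 without injury.

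The edge of the class was gradual. Within the lowest band of Acp5 inside the threshold, from 5 to 10 per 10000, there were 106 members at day 3 and 25 without injury. Just outside it, from 2.5 to 5 per 10000 with the other criteria met, there were 105 cells at day 3 and 19 without injury. Ctsk stood at 806 CPM just inside and 670 just outside at day 3, and at 432 just inside and 331 just outside without injury. Mmp9 stood at 590 just inside and 404 just outside at day 3, but at 693 just inside and 1041 just outside without injury. A further 107 cells at day 3 and 1 without injury had enough Acp5 and no UMI of the fusion genes. Those at day 3 were shallow, with a median of 1781 UMIs. EGFP set aside 99 cells at day 3 and 49 without injury, with medians of 39031 and 28363 UMIs, of which 74 and 3 were Scrublet candidates. The plot of Acp5 against the fusion genes shows the members as the upper right arm of a continuous cloud.

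**Figure D1:**
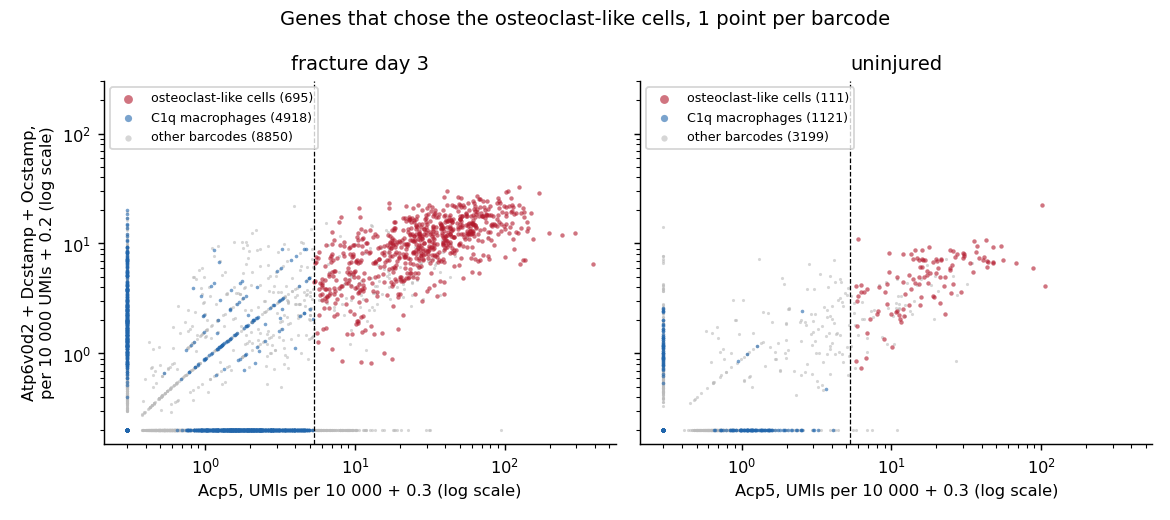
Each point is 1 cell, with Acp5 on the horizontal axis and the sum of Atp6v0d2, Dcstamp and Ocstamp on the vertical axis, both in UMIs per 10000 on log scales, and the dashed line is the Acp5 threshold of 5. Red points are the 695 members at day 3 (left) and 111 members without injury (right), blue points are C1q macrophages and grey points all other cells.

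The promoters of 4 genes that stood far above macrophages are shown, of which Acp5 is a rule gene. They are the 250 bases before the RefSeq start, build GRCm38.p6, 5′ to 3′ on the gene's strand, with matches to GGAAA (the core bound by NFAT factors) and GAGGAA (bound by the ETS factor PU.1) in capitals on either strand, so that TTTCC and TTCCTC are the same motifs on the other strand. Acp5 at chr9:22135747-22135996 (minus strand) encodes tartrate-resistant acid phosphatase, Ctsk at chr3:95498960-95499209 (plus) cathepsin K, Mt3 at chr8:94152357-94152606 (plus) a metallothionein and Slc9b2 at chr3:135307450-135307699 (plus) a sodium/proton exchanger.
Acp5: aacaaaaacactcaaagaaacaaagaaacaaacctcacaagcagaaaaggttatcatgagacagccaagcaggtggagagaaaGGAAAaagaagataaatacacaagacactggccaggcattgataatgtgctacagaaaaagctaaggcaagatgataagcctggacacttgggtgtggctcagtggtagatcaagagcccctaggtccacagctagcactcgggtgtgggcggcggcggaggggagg
Ctsk: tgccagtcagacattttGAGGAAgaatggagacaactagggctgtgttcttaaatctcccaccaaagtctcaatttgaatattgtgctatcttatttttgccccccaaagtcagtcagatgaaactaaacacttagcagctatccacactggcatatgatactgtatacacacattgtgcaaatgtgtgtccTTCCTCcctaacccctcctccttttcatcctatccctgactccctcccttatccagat
Mt3: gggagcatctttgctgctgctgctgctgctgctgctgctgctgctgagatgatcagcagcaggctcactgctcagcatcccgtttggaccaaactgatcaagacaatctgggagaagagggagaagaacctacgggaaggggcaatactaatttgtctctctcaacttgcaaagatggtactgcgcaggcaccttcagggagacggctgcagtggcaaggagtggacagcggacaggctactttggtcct
Slc9b2: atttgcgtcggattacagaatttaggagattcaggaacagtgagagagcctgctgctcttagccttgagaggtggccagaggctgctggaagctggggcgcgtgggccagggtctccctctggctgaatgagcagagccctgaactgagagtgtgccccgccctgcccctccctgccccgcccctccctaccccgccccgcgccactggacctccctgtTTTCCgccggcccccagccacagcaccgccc
Acp5 and Slc9b2 each held 1 GGAAA, at 167 and 31 bases before the start, and Ctsk held 2 GAGGAA, at 233 and 58 bases before it. Mt3 held neither. GGAAA occurred in 55.6% and GAGGAA in 23.1% of the 27025 promoters of the same length, 1 per gene, and the AP-1 motif TGANTCA, in 6.87% of them, was in none of the 4. These matches describe the letters of the window and no binding was measured. Mmp9 and Atp6v0d2 were also looked for and were missing from the set of promoters.

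Against the macrophages of their own library, the members carried the enzymes and transporters of bone resorption at high levels in both libraries. Ctsk had 2257 CPM in members and 47.3 in macrophages at day 3, a ratio of 47.7 (45.3 to 50.3), and 1062 in members and 9.47 in macrophages without injury, a ratio of 112 (93.4 to 136). Mmp9, the gelatinase by which osteoclasts migrate through matrix, had 2859 in members and 121 in macrophages at day 3, a ratio of 23.6, and 1853 and 13.1 without injury, a ratio of 142. With cells limited to 5% mitochondrial UMIs its log2 ratio at day 3 was 3.25 in place of 4.56. Car2, the carbonic anhydrase that supplies the protons, had 95.1 in members and 1.66 in macrophages at day 3 and 78.2 and 0.391 without injury, ratios of 57.4 (43.7 to 76.9) and 200 (84.0 to 624). These genes stood well above macrophages in both libraries, and the larger uninjured ratios went with lower levels in the uninjured macrophages, not with higher levels in members.

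At day 3, 308 of the 3799 genes that reached 50 CPM in 1 of the classes were at least 2-fold above macrophages (8.11%) and 650 at least 2-fold below (17.1%). Without injury, 220 of 2767 genes were at least 2-fold above (7.95%) and 347 at least 2-fold below (12.5%). The median log2 ratio over these genes was -0.18 at day 3 and -0.08 without injury. Scaling by trimmed mean (TMM) moved the share of higher among all called genes at day 3 to 50.1%, against 32.2% by library total. Among named genes, Mt3 led in both libraries, with 590 CPM in members and 3.59 in macrophages at day 3 and 373 and 1.25 without injury, ratios of 164 (137 to 199) and 298 (183 to 524). Slc9b2, which sits in osteoclast mitochondria and endosomes, had 266 and 2.64 at day 3 (ratio 101) and 152 and 1.56 without injury (ratio 97.3). Cd200, an immune-inhibitory membrane ligand, had 255 in members and 2.76 in macrophages at day 3 (ratio 92.3) and 190 and 1.02 without injury (ratio 187). Of the 12 genes furthest above macrophages, Mt3, Car2, Cd200, Kbtbd11, Ctsk, Slc9b2, Scin (an actin-severing protein of osteoclasts) and Coq8a were among them in each library.

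**Figure D2:**
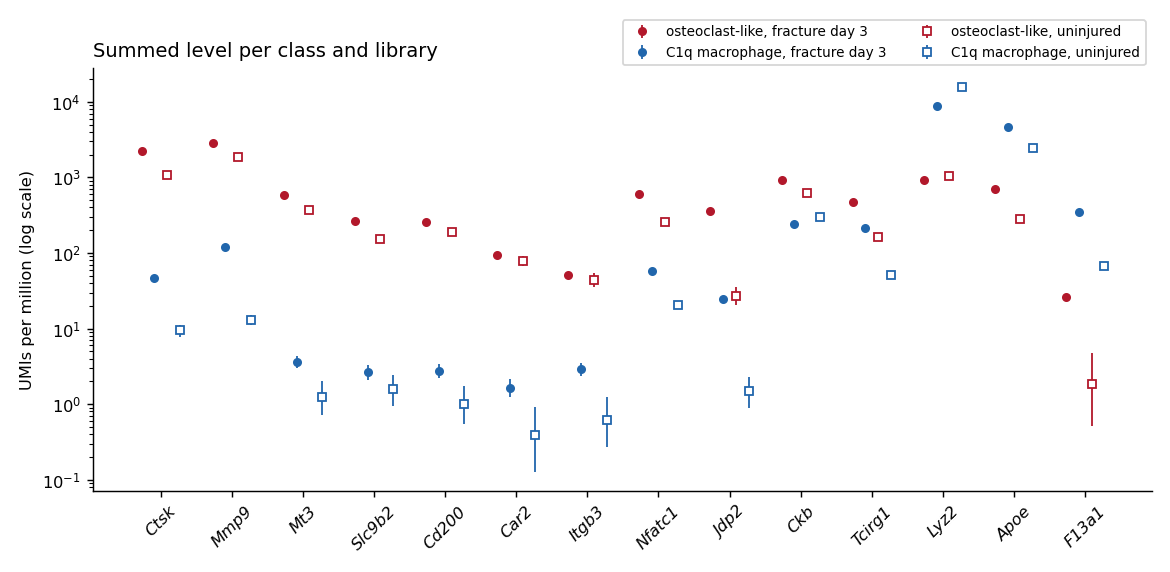
CPM (log scale) of 14 genes summed over the members (red) and the C1q macrophages (blue) of the day-3 (filled circles) and uninjured (open squares) libraries, with 95% counting intervals as bars. The genes from Ctsk to Itgb3 lie far above macrophages in both libraries, and Lyz2, Apoe and F13a1 lie below them.

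Of the 25 genes of the resorption list, 24 reached 10 CPM in 1 of the classes at day 3, of which 11 were at least 2-fold above macrophages and 6 at least 2-fold below, while 6.69% of all genes were above and 16.1% below at that level. Without injury 23 reached it, with 12 above and 4 below, against 7.12% and 12.5% of all genes. Acp5, a rule gene, is 1 of those above in each library. The median log2 ratio of the list was 0.92 at day 3 and 1.62 without injury. Snx10, a sorting nexin whose loss causes osteopetrosis, had 476 CPM in members and 145 in macrophages at day 3 and 251 and 65.8 without injury. Slc4a2, the bicarbonate/chloride exchanger that balances proton secretion, had 219 in members and 59.3 in macrophages at day 3 and 114 and 26.0 without injury. Clcn7, the chloride channel of the ruffled border, had 94.6 in members and 51.1 in macrophages at day 3 (log2 ratio 0.89) and 81.0 and 26.3 without injury (log2 ratio 1.62). The lysosomal cathepsins used by macrophages ran the other way: Ctsb had 999 in members and 3409 in macrophages at day 3 and 534 and 2086 without injury, and Ctsl 646 and 2822 at day 3 and 148 and 1110 without injury.

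The V-type ATPase, the proton pump of the ruffled border, was higher in part of its measured subunits, and how many depended on the limits set for cells at day 3. Of 25 subunit genes, 17 reached 10 CPM, of which 11 were at least 2-fold above macrophages at day 3 and 9 without injury, with 1 below in each library, the rule gene Atp6v0d2 among those above, and medians of 1.09 and 1.10. Of all genes at that level 6.69% were above at day 3 and 7.12% without injury. With cells limited to 5% mitochondrial UMIs 4 of 17 were above at day 3 (median 0.79), namely Atp6v0d2, Atp6v0e, Atp6v1b2 and Atp6v1d, and with no EGFP limit 5 of 17 (median 0.94), while 9 were above without injury in both cases. Atp6v1b2, the brain-type B subunit that is the form used in osteoclasts, had 1041 CPM in members and 239 in macrophages at day 3 and 603 and 135 without injury, ratios of 4.35 (4.23 to 4.48) and 4.48 (4.17 to 4.82). Atp6v1d had 525 in members and 115 in macrophages at day 3 and 446 and 97.9 without injury, a ratio of 4.56 in both. Of the membrane a subunits, Tcirg1, the a3 form mutated in osteopetrosis, had 477 in members and 216 in macrophages at day 3 and 162 and 50.9 without injury. Its paralog Atp6v0a1 had 28.6 in members and 138 in macrophages at day 3 and 14.1 and 65.8 without injury, and Atp6v0a4 was at 0 UMIs in every class. Of the d subunits, Atp6v0d1 had 183 in members and 210 in macrophages at day 3 and 113 and 116 without injury, while Atp6v0d2 was a rule gene.

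**Figure D3:**
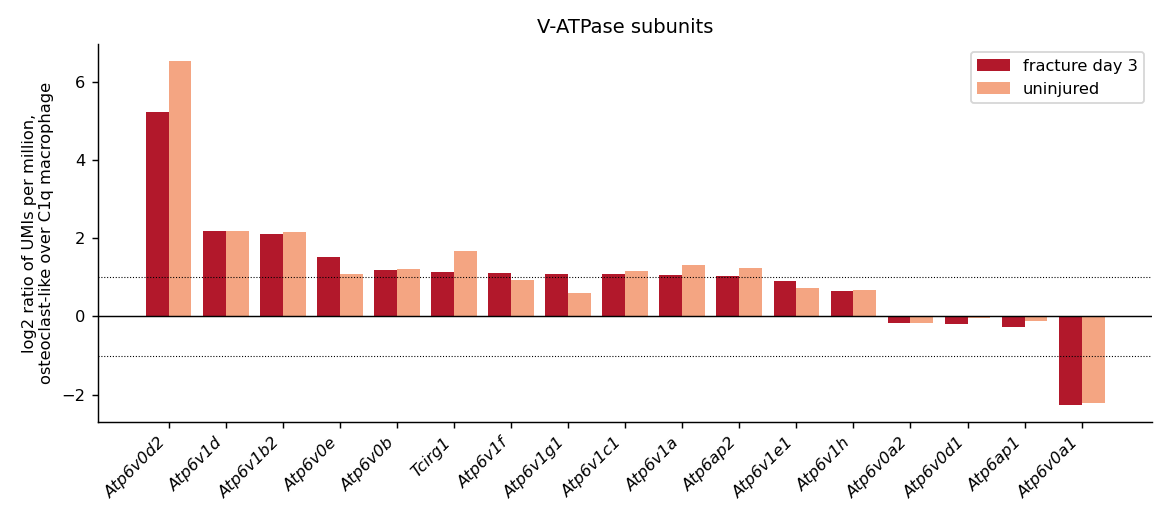
Log2 ratio of CPM, members over C1q macrophages, for the 17 V-ATPase genes measured at 10 CPM or more, at day 3 (dark bars) and without injury (light bars), in order of the day-3 ratio, with dotted lines at 2-fold. Bars of the 2 libraries are of like height for most subunits, and Atp6v0a1 alone lies beyond 2-fold below.

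Fusion genes outside the rule were mixed. Of 17 listed genes, 15 were measured at day 3 and 14 without injury, and 6 stood at least 2-fold above macrophages in each library, 3 of them rule genes. At least 2-fold below were 3 at day 3, Sirpa among them, and 2 without injury. Of all genes 6.69% were above and 16.1% below at day 3, and 7.12% and 12.5% without injury. The other 3 above were Myo10 (a filopodial myosin), Sh3pxd2a (the podosome scaffold Tks5) and Mst1r. Myo10 had 179 CPM in members and 30.8 in macrophages at day 3 and 95.6 and 20.3 without injury. Sh3pxd2a had 95.6 in members and 27.5 in macrophages at day 3 and 57.2 and 15.5 without injury. Adam8 and the tetraspanin gene Cd81 were lower in members in both libraries: Cd81 had 48.6 in members and 239 in macrophages at day 3 and 64.2 and 291 without injury. All 3 fusion genes of the rule were detected together in 485 members at day 3 (69.8%) and 73 without injury (65.8%), with medians of 16 and 9 UMIs over the 3.

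Transcription factors of the osteoclast programme differed between the classes in both directions. Nfatc1, the master regulator, had 603 CPM in members and 58.2 in macrophages at day 3 and 260 and 20.7 without injury, ratios of 10.4 (9.85 to 10.9) and 12.6 (10.9 to 14.6). Prdm1 (Blimp1), which represses the inhibitors of this programme, had 148 in members and 21.5 in macrophages at day 3 and 81.5 and 3.91 without injury. Ppargc1b (PGC-1β), the coactivator of mitochondrial biogenesis in osteoclasts, had 118 in members and 8.37 in macrophages at day 3 and 69.3 and 3.21 without injury. These 3 genes, with Fosl2 and Jdp2, were the 5 of 26 measured factors at least 2-fold above macrophages at day 3. A larger number, 11, were at least 2-fold below, beside 6.69% of all genes above and 16.1% below. Among the 11 was Irf8, a known repressor of osteoclast formation. Irf8 had 21.1 in members and 179 in macrophages at day 3 and 14.5 and 104 without injury. Spi1 (PU.1), needed for both lineages, had 617 in members and 360 in macrophages at day 3 and 854 and 544 without injury, within 2-fold in each. Without injury 7 of 25 factors were above, among them Mitf and Esrra, and 9 below, beside 7.12% and 12.5% of all genes. The median log2 ratio of the list was -0.32 at day 3 and 0.17 without injury.

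Among receptors and adaptors, 4 of 31 measured genes were at least 2-fold above macrophages at day 3 and 11 below, beside 6.69% and 16.1% of all genes. Without injury 4 of 30 were above and 9 below, beside 7.12% and 12.5%, and the medians were -0.58 and -0.38. The 4 above were the same genes in both libraries, Oscar, Itgb3, Itgav and Src. The Fc receptor genes Fcgr1 and Fcgr3, Vav3 and Nrp1 were among those below in both. Itgb3, the β3 chain of the vitronectin receptor by which osteoclasts hold bone, had 51.7 CPM in members and 2.88 in macrophages at day 3 and 44.5 and 0.626 without injury. Its ratio at day 3 was 17.9 (14.4 to 22.5), and with cells limited to 5% mitochondrial UMIs its log2 ratio was 1.68 in place of 4.16. Its partner Itgav had 521 in members and 171 in macrophages at day 3 and 226 and 64.6 without injury. Src, the kinase needed for the ruffled border, had 131 in members and 13.5 in macrophages at day 3 and 74.5 and 4.07 without injury. Oscar, the collagen receptor of osteoclasts, had 33.5 in members and 0.644 in macrophages at day 3, and 30.9 in members without injury, where no UMI was counted in macrophages. Tnfrsf11a (RANK) and Csf1r, the receptors for the 2 inducing cytokines, were within 2-fold: Tnfrsf11a had 159 in members and 93.5 in macrophages at day 3 and 77.3 and 44.2 without injury, and Csf1r 410 and 514 at day 3 and 293 and 423 without injury. Calcr, the calcitonin receptor of mature osteoclasts, stood at 5.13 CPM in members at day 3 and 5.15 without injury.

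The share of cells with a UMI was compared after each cell was thinned to 3000 UMIs, which left out 19 members at day 3 and 2 without injury. Car2 was then found in 20.6% of members at day 3 and 16.5% without injury, against 45.4% and 31.2% for Slc9b2 (51.2% and 54.1%, and 78.8% and 75.7%, before thinning). In EGFP-rich mesenchymal cells the thinned shares were 0.387% and 0.223% for Car2 and 0.537% and 0.312% for Slc9b2. The source of these UMIs was not tested. Calcr was found in 2.22% of members at day 3 and 1.83% without injury, and in none of the EGFP-rich cells. Siglec15, a fusion and resorption receptor, was found in 0.740% of members at day 3 and 0.917% without injury, likewise against none. Itgb3 was not particular to members at day 3. After thinning it was found in 10.4% of members and 8.88% of EGFP-rich cells at day 3, against 28.8% and 48.2% before thinning. Without injury the thinned shares of Itgb3 were 11.0% of members and 0.357% of EGFP-rich cells.

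Podosome genes had medians near 0, with some members of the list higher. Of 28 measured, 7 were at least 2-fold above macrophages at day 3 and 8 without injury, with 0 and 1 below, and the medians were 0.05 and -0.02. Of all genes 6.69% were above and 16.1% below at day 3, and 7.12% and 12.5% without injury. Pstpip1, an adaptor of the actin cytoskeleton, had 438 CPM in members and 101 in macrophages at day 3 and 379 and 92.5 without injury. Actn1 (α-actinin) had 415 in members and 200 in macrophages at day 3 and 223 and 98.4 without injury. The actin-bundling gene Lcp1 had 738 in members and 1000 in macrophages at day 3 and 384 and 429 without injury. The clastokines, factors that osteoclasts send to bone-forming cells, were split, with 4 of 15 above and 6 below at day 3 and 5 of 12 above and 4 below without injury. Pdgfb, whose product PDGF-BB recruits vessels and progenitors, had 133 in members and 47.1 in macrophages at day 3 and 34.2 and 11.5 without injury. Igf1 had 30.3 in members and 341 in macrophages at day 3 and 32.8 and 443 without injury. Spp1 (osteopontin) was lower in members, with 1728 against 4535 in macrophages at day 3 and 624 against 3662 without injury. At day 3 its ratio came within 2-fold (log2 -0.38) when EGFP was not limited.

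Many nuclear genes of mitochondrial respiration were higher in members. The list also holds Ckb and the coactivator gene Ppargc1b, both at least 2-fold above macrophages in each library. Of its 28 genes, 27 were measured in each library. At least 2-fold above macrophages were 19 at day 3 and 13 without injury, beside 6.69% and 7.12% of all genes. None was below, and the medians were 1.33 and 0.97. At 5% mitochondrial UMIs 14 and 10 were above. Cycs (cytochrome c) had 394 CPM in members and 123 in macrophages at day 3 and 658 and 274 without injury. Idh3a, an enzyme of the citric acid cycle, had 203 in members and 63.1 in macrophages at day 3 and 131 and 49.8 without injury. Ckb, the brain-type creatine kinase that buffers ATP for the proton pump, had 917 in members and 245 in macrophages at day 3 and 618 and 299 without injury. These 3 were named after their values were seen. The 13 transcripts encoded by mitochondrial DNA were less apart, with 2 of 13 at day 3 and 2 of 12 without injury above 2-fold and medians of 0.69 and 0.78. The median member drew 6.12% of its UMIs from mitochondrial transcripts at day 3 and 4.20% without injury, against 4.32% and 2.88% in macrophages. Glycolytic and hypoxia genes were mostly within 2-fold, with 0 of 22 above and 3 below at day 3 and 1 of 21 above and 3 below without injury. Of all genes 16.1% were below at day 3 and 12.5% without injury.

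The genes of macrophage identity were lower in members almost as a block. At day 3, 20 of 25 measured genes were at least 2-fold below macrophages and none above, and without injury 20 of 24 were below and none above, with medians of -3.12 and -3.16, where 16.1% and 12.5% of all genes were below. Lyz2 (lysozyme) had 929 CPM in members and 8849 in macrophages at day 3 and 1055 and 15514 without injury, ratios of 0.105 (0.103 to 0.107) and 0.0680 (0.0652 to 0.0709). F13a1 (coagulation factor XIII) had 25.8 in members and 348 in macrophages at day 3 and 1.87 and 67.1 without injury. Mrc1, the mannose receptor, had 34.3 in members and 461 in macrophages at day 3 and 24.8 and 231 without injury. Apoe, named after its values were seen, had 707 in members and 4589 in macrophages at day 3 and 281 and 2436 without injury. The list of inflammatory cytokines and chemokines also holds Arg1, Socs3, Tnfaip3 and Nfkbia, which encode neither. Lower in members were 13 of its 17 measured genes at day 3, Arg1 and Socs3 among them, and 9 of 14 without injury, beside the same 16.1% and 12.5%. Tnfaip3, an inhibitor of NF-κB signalling, was above in both libraries and Nfkbia without injury. Within 2-fold was Ccl9, a CC chemokine that osteoclasts secrete, with 1473 in members and 928 in macrophages at day 3 and 1766 and 892 without injury. Of 32 listed lysosomal genes other than the pump, 14 were at least 2-fold below at day 3. Without injury 11 of 31 were below, and none was above in either library, again beside 16.1% and 12.5% of all genes below. That list left out Acp5, Ctsk, Snx10 and Slc37a2, which stood at least 2-fold above in both libraries on the resorption list.

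Members differed among themselves along the level of Acp5, which ran from 5.01 through a median of 27.9 to 387 per 10000 at day 3 and from 5.51 through 16.3 to 106 without injury. Split into 3 ranges of equal size, at 19.4 and 40.6 per 10000 at day 3 and 12.8 and 22.2 without injury, the members gave the same order of most genes in both libraries. From the lowest to the highest range, Ctsk stood at 1048, 2326 and 3062 CPM at day 3 and at 498, 897 and 1863 without injury. Mmp9 stood at 877, 2574 and 4520 at day 3 and at 874, 1595 and 3212 without injury. Itgb3 stood at 11.3, 29.7 and 99.3 at day 3 and at 18.1, 11.9 and 111 without injury, and Oscar at 5.37, 30.7 and 55.8 and at 9.76, 19.8 and 66.6. Nfatc1 was nearly level at day 3, with 609, 628 and 577, and stood at 209, 284 and 288 without injury. Across the ranges Nfatc1 varied by less than the enzymes and the integrin. Lyz2 ran the opposite way, with 1267, 965 and 656 at day 3 and 1385, 1266 and 456 without injury. The ranges are cuts of a continuum, with 50 and 68 members at day 3 and 12 and 11 without injury within 10% of the 2 cuts. The median depth of the lowest range at day 3 was 14040 UMIs.

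Proliferation genes were found at the low end of Acp5. Mki67, a marker of cycling cells, stood at 202, 99.9 and 26.0 CPM from the lowest to the highest range at day 3 and at 78.1, 67.3 and 10.6 without injury. Top2a stood at 240, 105 and 21.1 and at 130, 87.1 and 4.54. After thinning to 3000 UMIs, 24.4% of members at day 3 (21.2 to 27.8) and 21.1% without injury (13.9 to 30.0) had 3 or more UMIs over 15 mitotic genes, against 29.4% and 36.8% of macrophages. Before thinning the shares were 46.2% and 60.4% of members and 34.5% and 64.9% of macrophages. Members with 3 or more mitotic UMIs before thinning had Acp5 at 2789 CPM at day 3 and 1746 without injury, against 5466 and 2675 in the rest. Nfatc1 was 583 in the mitotic members and 624 in the rest at day 3, and 260 in both without injury.

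**Figure D4:**
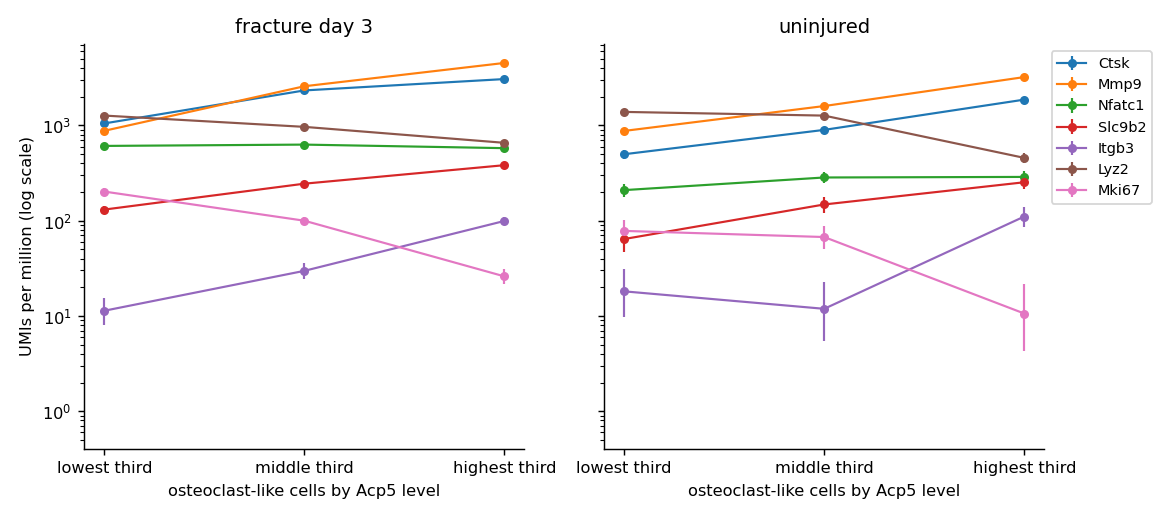
CPM (log scale, bars are 95% counting intervals) of 7 genes in the members with the lowest, middle and highest Acp5, at day 3 (left) and without injury (right). Ctsk, Mmp9 and Slc9b2 increase across the ranges in both libraries, Mki67 and Lyz2 decrease, and Nfatc1 changes least at day 3, with 609, 628 and 577.

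A small group of members still carried C1q transcripts at 10 or more per 10000, 37 cells at day 3 (5.32%) and 13 without injury (11.7%). At day 3 their Lyz2 was 3278 CPM, between the other members (792) and the macrophages (8849). Their Ctsk was 1606 and their Nfatc1 504, against 2295 and 609 in the other members. Without injury Lyz2 was 5087 in the C1q-high members, against 597 in the other members. These cells held both sets of transcripts, and whether some are doublets was not tested.

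Between libraries, members made up 4.81% of cells at day 3 (4.46 to 5.17) and 2.51% without injury (2.07 to 3.01). As a share of members and macrophages together they were 12.4% at day 3 (11.5 to 13.3) and 9.01% without injury (7.47 to 10.7). With cells limited to 5% mitochondrial UMIs the shares of cells were 1.85% at day 3, from 185 members, and 1.88% without injury, from 80. As a share of members and macrophages they were then 5.20% at day 3 (4.49 to 5.98) and 7.05% without injury (5.63 to 8.70), so the direction turned. Without cycling cells this share was 10.4% at day 3 (9.42 to 11.4) and 10.1% without injury (7.41 to 13.3). Cycling cells were those with 3 or more mitotic UMIs before thinning, so the cut was not made at equal depth. It removed 46.2% of members and 34.5% of macrophages at day 3, and 60.4% and 64.9% without injury. In male cells the share of members among members and macrophages was 12.3% (9.74 to 15.1) and 11.3% (9.14 to 13.8). With cells of 5000 to 20000 UMIs it was 13.3% and 6.53%. All live cells were loaded after explant culture, so a share is one of cultured cells and not of the bone.

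Within members, 576 of the 3132 genes reaching 50 CPM had at least 2-fold more at day 3 than without injury (18.4%) and 78 at least 2-fold lower (2.49%). The median log2 ratio over those genes was 0.39, not near 0. TMM scaling lowered every ratio by 0.31 on the log2 scale and gave 218 higher and 249 lower, with a median of 0.01. All 218 were also higher by library total, and all 78 lower genes were also lower by TMM. The share of higher among called genes was 88.1% by library total and 46.7% by TMM. In male cells alone, from 74 members at day 3 and 85 without injury, 591 of 3077 genes were higher (19.2%) and 89 lower (2.89%) by library total. In macrophages of the same 2 libraries 1116 of 3648 genes were higher (30.6%) and 203 lower (5.56%), with a median of 0.54.

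Most resorption genes differed by less than 2-fold. Of 23 measured, 6 passed 2-fold on the day-3 side and none on the other, where 20.6% of all genes at 10 CPM or more were higher and 3.15% lower, and the list's median was 0.94. With TMM scaling 3 were higher, with a median of 0.63. Ctsk was 2.13-fold higher at day 3 (2.04 to 2.22), with a log2 ratio of 1.09 by library total, 0.78 by TMM and 0.65 at 5% mitochondrial UMIs. Mmp9 was 1.54-fold higher (1.49 to 1.59), and at 5% mitochondrial UMIs its log2 ratio was -0.24. Tcirg1, with 477 CPM in members at day 3 and 162 without injury, was 2.94-fold higher (2.64 to 3.29) and stayed at least 2-fold higher under each of the 13 alternatives run. Of the 17 measured pump genes, 8 were at least 2-fold higher, Tcirg1 and the rule gene Atp6v0d2 among them, and none was lower. By TMM 3 of the 17 were higher, and at 5% mitochondrial UMIs 4.

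Of 25 measured transcription factors, 7 had at least 2-fold more at day 3 and 1, Id3, had less, with a median of 0.54, beside 20.6% and 3.15% of all genes and their median of 0.48. By TMM 4 were higher and 2 lower, with a median of 0.24. Jdp2, an AP-1 partner needed for osteoclast formation in mice, had 356 CPM in members at day 3 and 27.2 without injury, a ratio of 13.1 (10.1 to 17.3). In macrophages it had 24.5 at day 3 and 1.49 without injury, a ratio of 16.5, so it differed by a like factor in both classes. Cebpb, a factor of myeloid cells, had 125 in members at day 3 and 8.90 without injury and 649 and 25.7 in macrophages. Nfatc1 was 2.32-fold higher (2.13 to 2.53) in members and 2.82-fold in macrophages, and under 2-fold by TMM (log2 0.91). Spi1 had 617 at day 3 and 854 without injury, and Id3, an inhibitor of differentiation, 17.1 and 67.0. Tnfrsf11a had 159 at day 3 and 77.3 without injury, Pdgfb 133 and 34.2, and Pdgfa 253 and 71.2. Pdgfb and Pdgfa were at least 2-fold higher under each of the 13 alternatives. Tfrc, the transferrin receptor that imports iron for respiration, had 252 at day 3 and 54.3 without injury, a ratio of 4.63 (3.85 to 5.62). Of the respiration genes, 1 of 27 was at least 2-fold higher and 2 were lower, with a median of -0.06, beside the same 20.6%, 3.15% and 0.48 of all genes.

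**Figure D5:**
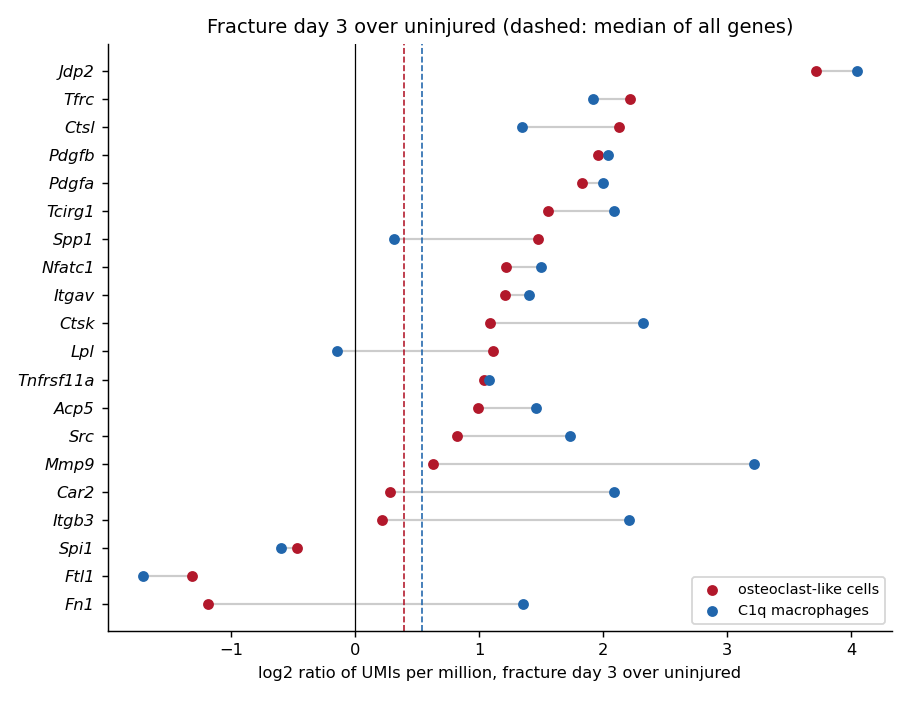
Log2 ratio of CPM, day 3 over uninjured, in members (red) and C1q macrophages (blue) for 20 genes, with dashed lines at the median over all genes of each class (0.39 in members, 0.54 in macrophages). Mmp9, Car2 and Itgb3 lie near the median in members and far right of it in macrophages, while Spp1 and Lpl lie right of it in members only.

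Several of the strongest differences involved genes of other cell types. S100a8 and S100a9, alarmins of neutrophils, had 517 and 429 CPM in members at day 3 and 5.62 and 0.468 without injury. Of the 11417 UMIs of both genes in day-3 members, 91.2% were in 22 cells with 10 or more per 10000, and without those cells S100a8 stood at 47.6. Ngp and Camp, neutrophil granule genes, had 119 and 57.6 in members at day 3 and 0.937 and 1.87 without injury, and 5.65 and 2.48 at day 3 without those 22 cells. At least 1 UMI of S100a8 was counted in 48.9% of members at day 3 and 9.91% without injury. After thinning it was in 15.4% of members at day 3 and 1.83% without injury. The thinned shares were 26.4% and 5.54% of macrophages and 9.39% and 1.38% of EGFP-rich mesenchymal cells. The source of these UMIs was not tested. The neutrophil markers summed to 957 CPM in members, 1091 in macrophages and 4086 in the other cells of the day-3 library. Without cells rich in S100a8 and S100a9 in either class, 575 genes were higher and 78 lower in members at day 3, against 576 and 78 with them. Members over macrophages at day 3 gave 311 higher and 656 lower, against 308 and 650. The ratio of ratios gave 20 and 62, against 23 and 65. The part of neutrophil transcripts in the remaining cells was not tested. On the low side, Col1a1 had 6.54 in members at day 3 and 121 without injury and 9.05 and 127 in macrophages, and Sparc 28.2 and 213 in members and 36.6 and 191 in macrophages. Of the 12 lowest named genes, Wisp2, Gas1, Col1a1, Lox, Col3a1, Col1a2, Serpinh1, Sparc, Fstl1, Bgn and Fbln2 encode proteins typical of mesenchymal cells. All 7 mesenchymal markers were detected in members of both libraries, and they summed to 47.9 CPM in members at day 3 and 390 without injury, 67.4 and 345 in macrophages and 1705 and 4047 in the other cells. These values lay side by side in members and macrophages, and their source was not tested. Xist had 412 CPM in members at day 3 and no UMI in members without injury.

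The same contrast was set beside that of the macrophages as a ratio of ratios, without a test. Of 3983 genes at 50 CPM or more in the highest class, the day-3 to uninjured ratio was at least 2-fold larger in members than in macrophages for 23 (0.577%) and at least 2-fold smaller for 65 (1.63%). Mmp9 was among the 65, being 1.54-fold higher at day 3 in members and 9.28-fold in macrophages. Car2 was 1.22-fold higher in members and 4.23-fold in macrophages, Itgb3 1.16-fold and 4.61-fold, Prdm1 1.81-fold and 5.50-fold, and Mmp14 1.75-fold and 6.81-fold. In these genes the day-3 macrophages came closer to members than the uninjured macrophages did, though Car2 and Itgb3 remained under 3 CPM in them. Among the 23 were Spp1, 2.77-fold higher at day 3 in members and 1.24-fold in macrophages, and the lipase gene Lpl, with 928 in members at day 3 and 429 without injury (2.16-fold), against 514 and 570 in macrophages (0.901-fold). Lpl was named after its values were seen. At 10 CPM or more, where the ratio was larger for 1.57% of genes and smaller for 3.57%, the 24 measured resorption genes held 1 with a larger ratio, Sort1, and 4 with a smaller one, Ctsk, Mmp9, Mmp14 and Car2. In male cells alone the 65 became 249 and the 23 became 53, from 74 and 85 members.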

How the data were processed

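The deposited files are 10x matrices of UMI counts per gene and barcode, whole numbers that the authors did not normalize, per the file headers, which give software 3.1.0. The submitters' processing notes list Cell Ranger, Seurat 4.0.1 and build mm10, without their order or settings. The labels' protocols name kit version 2 for both libraries and the molecule as genomic DNA. Of 31055 features 30934 were in the annotation.

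Members, lists and comparisons were chosen with earlier results of these data known. UMIs were summed per class and library and divided by the class total (CPM, per 1000000). Ratios have exact conditional binomial 95% intervals, single levels exact Poisson and shares exact Clopper-Pearson intervals, which cover counting error only; with 1 library per group there was no test. Genes needed 50 CPM in the higher class, list genes 10. Called means at least 2-fold. Counts of list members include genes that passed only through the class where they are high.

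Text names, per comparison, come from the 12 highest and 12 lowest ratios (rule genes, gene models, mitochondrial, ribosomal and globin genes left out), all members of the fusion, resorption, V-ATPase, transcription factor, receptor and clastokine lists, and the 2 highest and 2 lowest members of other lists by day-3 over uninjured ratio; other genes, podosome, respiration, mitotic and lysosomal examples included, were named after their values were seen. Doublets were kept; Scrublet in scanpy 1.11.5 marked 0 cells in either library with its automatic threshold, so the highest scores at 0.8% per 1000 barcodes were removed as an alternative. TMM factors came from edgeR 4.0.16, in Python 3.11.15 and R 4.3.3. The ratio and thinning steps were tested on simulated data. Promoters are from RefSeq, GRCm38.p6.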

Additional observations from a re-analysis of the deposited data

Results flagged for a closer look

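Fn1, which encodes fibronectin, and Ly6a, which encodes the surface protein Sca-1, differed between libraries by at least 2-fold in opposite directions in members and macrophages. Fn1 had 90.0 CPM in members at day 3 and 205 without injury (log2 ratio -1.19), against 466 and 182 in macrophages (log2 ratio 1.36). Ly6a had 22.4 in members at day 3 and 81.5 without injury (log2 ratio -1.87), against 206 and 81.8 in macrophages (log2 ratio 1.33). Fn1 is on the mesenchymal list. In members 10 of its 13 measured genes were at least 2-fold lower at day 3 and 1 higher, beside 3.15% and 20.6% of all genes. In macrophages 6 of 11 were lower and 2, Fn1 and Serpinb2, higher, beside 4.48% and 31.6% of all genes. The difference between the classes was not tested, since each group is 1 library, and the source of these UMIs was not tested. With no EGFP limit the ratio of Fn1 in members was -0.55 on the log2 scale and that of Ly6a -2.16. Fn1 in members was also under 2-fold with equal weight per cell, with cells of 5000 to 20000 UMIs and with Acp5 at 10 per 10000 or more.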

How the results depend on the processing

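No paired analysis was possible because each group is 1 library and the labels number no replicates. Of the called values of named genes, 116 of 141 at day 3 and 114 of 129 without injury, members over macrophages, kept 2-fold under every one of the up to 13 alternatives, but 46 of 108 for day 3 over uninjured in members. By TMM the counts for day 3 over uninjured in members were 218 higher and 249 lower, and the smaller ratios of ratios numbered 43. At 10 CPM the counts higher and lower were 1622 and 248 for day 3 over uninjured, 567 and 1367 for members over macrophages at day 3, 543 and 953 without injury, and 136 and 310 for the ratio of ratios. With no minimum they were 2453 and 1396, 1745 and 2548, 1681 and 1661, and 545 and 1293. The ratio of ratios gave 147 and 157 after thinning, 53 and 249 in male cells, 71 and 183 without cycling cells, 59 higher in members without C1q, 41 higher at 5% mitochondrial UMIs, 132 lower without doublet candidates and 87 higher with no EGFP limit. Without cycling cells 468 genes were higher than in macrophages at day 3, and with no EGFP limit 122 were lower at day 3 than without injury. The share of members was 4.07% at day 3 and 1.94% without injury at Acp5 of 10, 1.85% and 1.88% at 5% mitochondrial UMIs, and 5.49% and 3.61% with no EGFP limit. Of called values at 50 CPM or more, signs turned for C5ar1 (log2 ratio of day 3 over uninjured in members -0.27 without doublet candidates and -0.99 in male cells) and Camp (-0.11 without cycling cells and -0.024 in male cells). Below 50 CPM, values beyond 2-fold also turned for Plac8 (-0.36 without doublet candidates, -1.02 in male cells), Ccr2 (-0.93), Cxcl2 (-0.61) and Atp6v0a1 (-0.083) in male cells, Ccl7 (0.50 after thinning) and, in male cells, the Y-linked Ddx3y (0.15) and Eif2s3y (0.47). Values under 2-fold turned in further genes, among them Mmp9 (-0.24 at 5% mitochondrial UMIs) and Alox5ap (-1.09 in male cells). Dropping the EGFP limit and cells rich in S100a8 and S100a9 were chosen after seeing the data. Fewer cells and UMIs limit the uninjured members, and the cause of each change was not tested.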
